A study of Mus musculus with 6 samples.

Results

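NF-kB is a family of transcription factors that switch on genes of inflammation, survival and immune cell development. Its subunits pair into dimers, which inhibitor proteins of the IkB family hold in the cytoplasm until TNF, Toll-like receptor ligands or other signals trigger the inhibitor's destruction. The dimers then enter the nucleus and induce, among others, the genes of their own inhibitors, so that the RNA of an inhibitor such as Nfkbia is widely used as a readout of the pathway. In blood stem and progenitor cells the pathway is known for its part in self-renewal, survival and the response to inflammation. The genes described here are 10 members of this system out of 54532 genes measured, chosen by name: the subunits Nfkb1, Nfkb2, Rel, Rela and Relb, the inhibitors Nfkbia, Nfkbie and Nfkbiz, the feedback enzyme gene Tnfaip3 and the cytokine gene Tnf. All 10 passed the filter on low counts and were among the 14608 genes tested.

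RNA was sequenced from LSK cells of mouse bone marrow, the fraction without lineage markers and with Sca-1 and c-Kit on the surface, in which stem cells and multipotent progenitors are enriched. The genotype label was Phf6fl-R274X/Y in 3 libraries, called floxed here, and Vav1-Cre; Phf6fl-R274X/Y in the other 3, called Vav1-Cre. Phf6 is X-linked, and the males (Y) of both groups carried its floxed allele, made to yield the stop codon R274X after Cre recombination, and they differed by the Cre transgene, which the Vav1 promoter drives in blood cells from early development on. No floxed-free mice with Vav1-Cre were analysed here, so effects of Cre itself and of the mutation cannot be told apart. Age is not given in the labels, nor whether each library came from a separate animal, and the p-values describe the spread among these libraries only, which may be partly technical.

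Start sites of 7 of the members are listed in the RefSeq promoter table of build GRCm38.p6 (Nfkbia, Nfkbie, Tnfaip3, Rel, Nfkb2, Rela and Tnf). They are shown because the members called higher below are textbook targets of NF-kB itself. The kappa B consensus, the 10-base motif bound by NF-kB dimers, was searched on both strands from 250 bases before to 50 bases after each start. The RNA of Nfkbia, Nfkbie and Tnfaip3 was higher in the Vav1-Cre libraries, and at least 1 start of each held a match. The 250 bases before their starts follow, 5′ to 3′ on the gene's strand, with matches in capitals.
Nfkbia (chr12:55492648-55492897, minus strand): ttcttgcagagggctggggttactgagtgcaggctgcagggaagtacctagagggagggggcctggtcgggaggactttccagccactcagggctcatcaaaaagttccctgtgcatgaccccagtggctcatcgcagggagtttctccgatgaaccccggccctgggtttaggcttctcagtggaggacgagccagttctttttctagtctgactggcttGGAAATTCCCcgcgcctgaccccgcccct
Nfkbie (chr17:45555450-45555699, plus strand): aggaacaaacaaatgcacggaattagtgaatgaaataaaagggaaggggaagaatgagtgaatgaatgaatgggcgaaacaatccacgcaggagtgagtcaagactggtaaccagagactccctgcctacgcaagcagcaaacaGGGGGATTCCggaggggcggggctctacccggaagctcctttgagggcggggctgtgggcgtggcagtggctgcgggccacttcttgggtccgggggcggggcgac
Tnfaip3, first start (chr10:19015411-19015660, minus strand): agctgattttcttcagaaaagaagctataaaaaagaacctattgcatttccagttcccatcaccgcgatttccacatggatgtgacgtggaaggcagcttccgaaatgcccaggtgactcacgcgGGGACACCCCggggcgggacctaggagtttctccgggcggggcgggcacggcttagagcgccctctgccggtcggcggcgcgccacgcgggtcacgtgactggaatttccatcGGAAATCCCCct

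Counted from the start, the match lay at position -29 in Nfkbia, at -106 in Nfkbie and at -125 and -12 in Tnfaip3. Rel and Nfkb2, which did not pass the test, held matches as well, shown here with 10 flanking bases for comparison with the 3 genes above. The 11-base blocks of capitals in Rel and at position -39 of Nfkb2 are each a pair of overlapping matches.
Rel (chr11:23771041-23771071, minus strand): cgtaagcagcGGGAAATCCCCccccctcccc
Nfkb2, first start, position -39 (chr19:46304688-46304718, plus strand): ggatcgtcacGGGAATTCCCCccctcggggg
Nfkb2, first start, position -11 (chr19:46304716-46304745, plus strand): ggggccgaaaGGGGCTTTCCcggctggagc
The windows of Rela and Tnf and the second start of Tnfaip3 held no match, which says only that these letters are not in those windows. The other 2 starts of Nfkb2 held matches too, at -236 and 11 in the second window and at -225 in the third, and those at 11 and -225 are the same site, seen in overlapping windows. In all, 7 of the 10 windows of members held a match, with that site counted in both windows, against 8.46% of the 32851 windows of all genes. By gene, 5 of the 7 members with a window held one, against 12.2% of the 10414 tested genes with a window. The members were chosen by name from a system known to induce its own genes, so these shares follow in part from that choice and are no independent support. A match is a description of sequence and does not show binding in these cells.

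Total counts ranged from 15406314 to 18106065 per library, and the lowest count of any member was 230 (Relb in Vav1-Cre replicate 3). Phf6, the targeted gene, measured 31.8, 29.6 and 33.5 CPM (counts scaled to a common library size) in the floxed libraries and 8.47, 10.3 and 8.29 CPM in the Vav1-Cre libraries, a log2 fold change of -1.81 (SE 0.123, edgeR adjusted p = 6.67e-06). The gate genes Kit, which encodes c-Kit, and Ly6a, which encodes Sca-1, were detected in all 6 libraries, at means of 158 and 142 CPM in floxed and 96.7 and 247 CPM in Vav1-Cre libraries. Genes of cells outside the gate were present too: 12 neutrophil markers summed to between 14286 and 37264 CPM, and immunoglobulin genes took 0.293% to 1.18% of counts in floxed and 4.45% to 7.95% in Vav1-Cre libraries.

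Of the 10 members, 3 were higher in the Vav1-Cre libraries (Nfkbia, Tnfaip3 and Nfkbie), 1 was lower (Rela) and 6 did not pass an edgeR adjusted p of 0.05. Over all genes tested, 10.1% were called higher and 7.89% lower, 17.9% together. With upper-quartile scaling the division between directions turned, from 1469 higher and 1152 lower to 1215 higher and 1430 lower. The CPM ranges were apart for 7 members, 4 with Vav1-Cre above and 3 with Vav1-Cre below, against 37.2% of all genes tested. The median log2 fold change was 0.14 for the members and -0.02 for all genes tested. In bulk RNA, fewer cells of a type and less RNA per cell cannot be told apart.

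**Figure D1:**
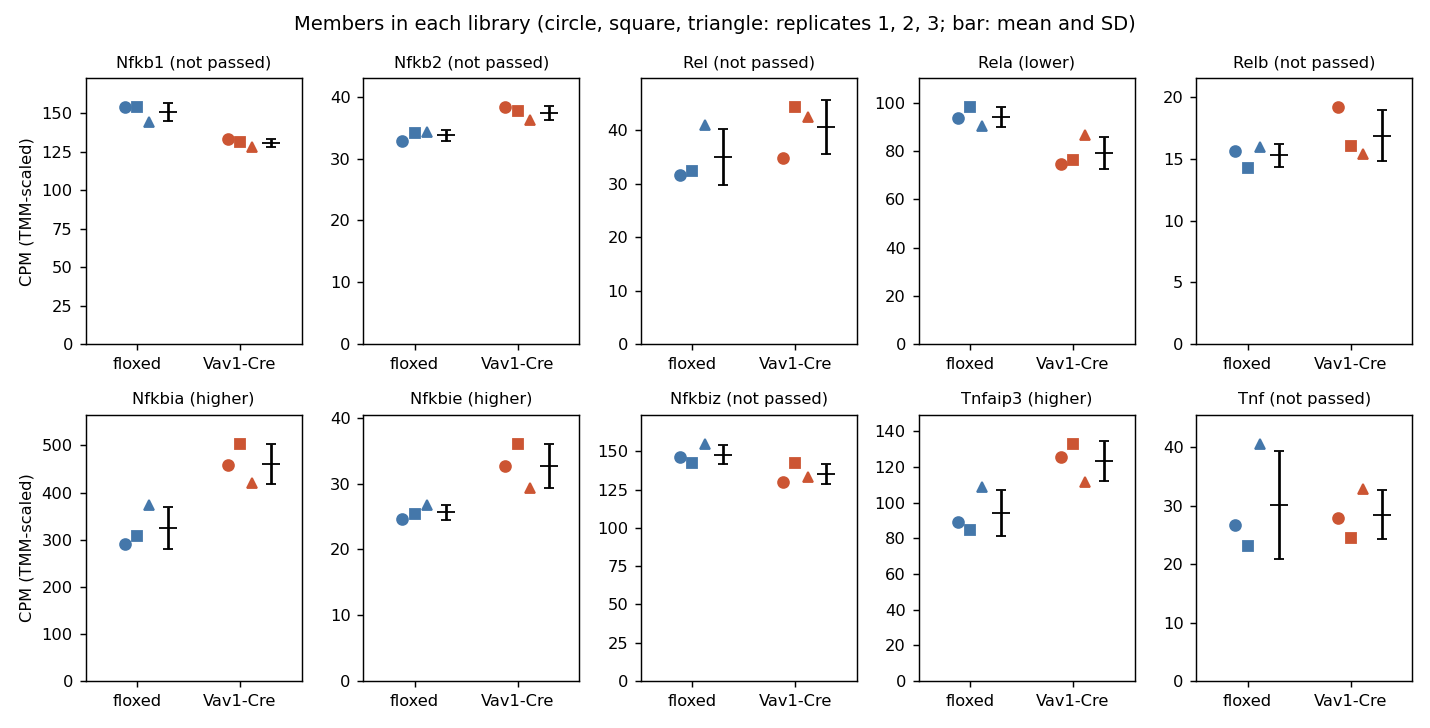
CPM of each member (vertical axis, from 0) in each library, with floxed libraries in blue and Vav1-Cre libraries in red, replicates as circle, square and triangle, and the group mean with its SD as a black bar. Nfkbia, Nfkbie and Tnfaip3 lie higher and Rela lower in every Vav1-Cre library than in any floxed library, while Tnf, Rel and Relb overlap.

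The members that rose were the genes of 2 cytoplasmic inhibitors, Nfkbia and Nfkbie, and of the feedback enzyme, Tnfaip3. Nfkbia (ENSMUSG00000021025, chromosome 12, 55489410 to 55492647, minus strand, GRCm38) encodes IkB-alpha, the inhibitor that is destroyed and then rapidly remade in a response. It measured 291, 309 and 374 CPM in the floxed libraries and 459, 504 and 419 CPM in the Vav1-Cre libraries. Every Vav1-Cre library lay above every floxed library, and floxed replicate 3 came closest to the other group. The means were 324 ± 43.8 and 461 ± 42.3 CPM (mean ± SD of 3 libraries), a rise of 1.42-fold (log2 fold change 0.51, SE 0.103, edgeR adjusted p = 0.00634). Of all genes tested, 20.7% changed by at least this much in either direction.

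Tnfaip3 (ENSMUSG00000019850, chromosome 10, 19000910 to 19015657, minus strand) encodes A20, an enzyme that edits ubiquitin chains on signalling proteins and damps signals from TNF and Toll-like receptors. Its values were 88.9, 84.5 and 108.7 CPM in floxed and 125.7, 133.1 and 111.3 CPM in Vav1-Cre libraries. The groups did not overlap, but Vav1-Cre replicate 3 stood only just above floxed replicate 3. The rise was 1.31-fold, from 94.0 ± 12.9 to 123 ± 11.1 CPM (mean ± SD of 3 libraries; log2 fold change 0.39, SE 0.102, edgeR adjusted p = 0.0225).

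Nfkbie (ENSMUSG00000023947, chromosome 17, 45555703 to 45563169, plus strand) encodes IkB-epsilon, a further inhibitor that NF-kB induces. It measured 24.7, 25.4 and 26.8 CPM in floxed and 32.7, 36.1 and 29.4 CPM in Vav1-Cre libraries, again with no overlap. The rise was 1.28-fold, from 25.6 ± 1.08 to 32.7 ± 3.37 CPM (mean ± SD of 3 libraries; log2 fold change 0.35, SE 0.103, edgeR adjusted p = 0.033). The order of the libraries from lowest to highest was the same for Nfkbia and Nfkbie, and Tnfaip3 differed from it only by the exchange of floxed replicates 1 and 2. Of all genes tested, 3.05% had 1 of these 2 orders.

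Nfkbiz (ENSMUSG00000035356, chromosome 16, 55811375 to 55838899, minus strand) encodes IkB-zeta, an atypical family member that acts in the nucleus and helps to switch on a subset of targets. It did not pass the test. Its values were 146.2, 142.5 and 155.1 CPM in floxed and 129.7, 142.4 and 133.0 CPM in Vav1-Cre libraries. The log2 fold change was -0.13 (SE 0.0722, 95% interval -0.29 to 0.02, edgeR adjusted p = 0.232). The highest Vav1-Cre library reached almost the lowest floxed library, so Nfkbiz is only narrowly among the members with ranges apart. The difference was of the size of the spread between replicates.

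Among the subunits, Rela (ENSMUSG00000024927, chromosome 19, 5637483 to 5648130, plus strand), which encodes p65, the main activating partner of the classical dimer, was lower. It measured 93.8, 98.4 and 90.3 CPM in the floxed libraries and 74.6, 76.4 and 86.6 CPM in the Vav1-Cre libraries. All Vav1-Cre libraries lay below all floxed libraries, with replicate 3 of each group nearest to the other. The fall was 1.19-fold, from 94.1 ± 4.05 to 79.2 ± 6.46 CPM (mean ± SD of 3 libraries; log2 fold change -0.25, SE 0.0785, edgeR adjusted p = 0.0445), just within the threshold.

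Nfkb1 (ENSMUSG00000028163, chromosome 3, 135584655 to 135691547, minus strand) encodes p105, the precursor of the p50 partner of p65, and lay just outside the threshold. Its values were 154, 154 and 144 CPM in floxed and 133, 132 and 128 CPM in Vav1-Cre libraries, with no overlap. The log2 fold change was -0.20 (SE 0.0686, 95% interval -0.35 to -0.05, edgeR adjusted p = 0.0581). The gene's merged exons are long, 12061 bases, and long genes were lower in the Vav1-Cre libraries in general, by a median log2 fold change of -0.13 in the longest of 10 equal groups by length, against 0.20 in the shortest. With an offset for gene length in each library the value for Nfkb1 was -0.06 (adjusted p = 0.611). Nfkbia, Tnfaip3 and Nfkbie were still called higher and Rela lower with this offset. The part of gene length in the values of the members was not tested.

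The other subunits, Nfkb2, Rel and Relb, did not pass. Nfkb2 (ENSMUSG00000025225, chromosome 19) encodes p100, the precursor of p52 in the non-canonical branch, and measured 32.8, 34.1 and 34.3 CPM in floxed and 38.4, 37.6 and 36.2 CPM in Vav1-Cre libraries. Its groups did not overlap, yet the log2 fold change of 0.15 (SE 0.0852, 95% interval -0.04 to 0.33) had an edgeR adjusted p of 0.256. Exons of Nfkb2 overlap those of Psd and of a long non-coding gene on the opposite strand, and the sources used here do not say whether strand was kept.

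Rel (ENSMUSG00000020275, chromosome 11) encodes c-Rel, a subunit prominent in lymphocytes, and measured 31.5, 32.3 and 41.0 CPM in floxed and 34.8, 44.3 and 42.4 CPM in Vav1-Cre libraries. The ranges overlapped (log2 fold change 0.21, SE 0.123, 95% interval -0.06 to 0.48, edgeR adjusted p = 0.261). Relb (ENSMUSG00000002983, chromosome 7), the partner of p52, measured 15.7, 14.3 and 16.0 CPM in floxed and 19.2, 16.0 and 15.4 CPM in Vav1-Cre libraries. These ranges overlapped as well (log2 fold change 0.14, SE 0.128, 95% interval -0.14 to 0.42, edgeR adjusted p = 0.486).

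Tnf (ENSMUSG00000024401, chromosome 17, 35199381 to 35202007, minus strand), the cytokine that both activates NF-kB and is induced by it, did not pass. It measured 26.7, 23.2 and 40.6 CPM in floxed and 27.9, 24.5 and 32.9 CPM in Vav1-Cre libraries. Replicate 3 was the highest library in each group, and the floxed values enclosed all Vav1-Cre values. The log2 fold change was -0.08 (SE 0.232, 95% interval -0.65 to 0.48, edgeR adjusted p = 0.838), the widest interval of the 10 members. The sign was positive without floxed replicate 3 (0.18) or Vav1-Cre replicate 2 (0.01).

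Levels of different genes were compared on the deposited FPKM values, which take gene length into account. Nfkbia stood far above the other members, at 200 ± 27.9 FPKM in floxed and 285 ± 25.9 FPKM in Vav1-Cre libraries (mean ± SD of 3 libraries), above 98.2% of all genes tested. Rela came next, with 34.4 ± 1.28 and 29.1 ± 2.43 FPKM, then Nfkbiz, with 29.2 ± 1.44 and 26.8 ± 1.32 FPKM. In the Vav1-Cre libraries the ranges of Rela and Nfkbiz overlapped.

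Below them Tnf, at 18.3 ± 5.69 FPKM in floxed libraries, overlapped with Tnfaip3, at 12.9 ± 1.84 FPKM, and Tnfaip3 overlapped with Nfkb1, at 12.4 ± 0.415 FPKM. In the Vav1-Cre libraries Tnf and Tnfaip3 overlapped again, at 14.9 to 20.1 and 15.4 to 18.4 FPKM, while Nfkb2 (11.3 FPKM) stood just above Nfkb1 (10.8 FPKM) and Nfkb1 overlapped with Nfkbie (10.7 FPKM). Rel and Relb, whose ranges overlapped in the Vav1-Cre libraries, were the lowest members in both groups, at 4.64 and 3.91 FPKM in floxed and 5.41 and 4.33 FPKM in Vav1-Cre libraries. Even Relb exceeded 46.5% of the genes tested, so all 10 members were well within the measured range.

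**Figure D2:**
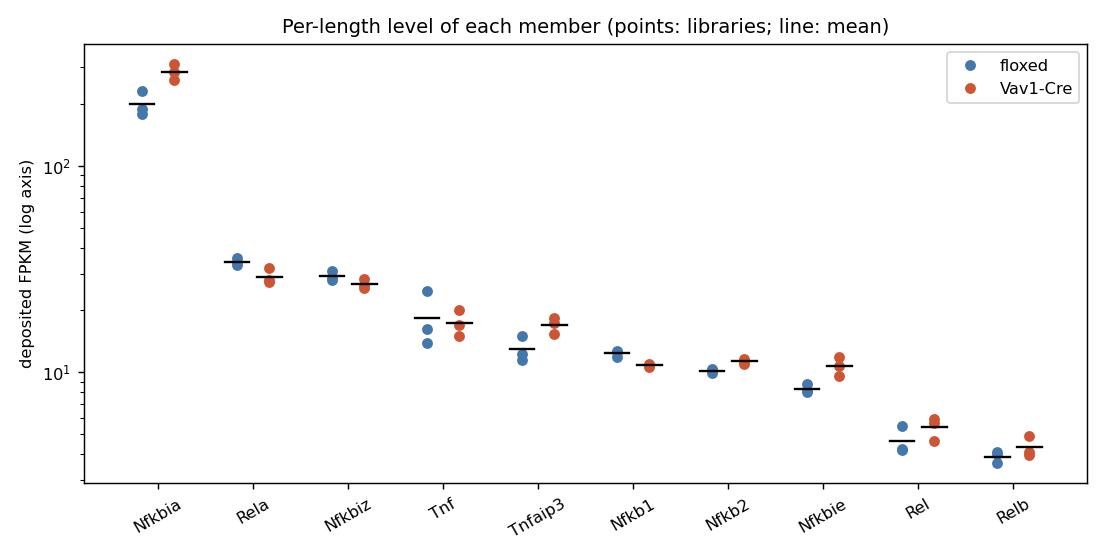
Deposited FPKM of each member (logarithmic vertical axis), ordered by the floxed mean, with floxed libraries in blue, Vav1-Cre libraries in red and group means as lines. Nfkbia is the highest member at 200 FPKM in floxed and 285 FPKM in Vav1-Cre libraries, and Relb the lowest at 3.91 and 4.33 FPKM.

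The balance among the subunits, taken as each gene's share of their summed FPKM, differed between the groups for Rela and Nfkb2. Rela made up 52.7%, 53.7% and 50.9% of the sum in floxed and 46.0%, 46.5% and 50.5% in Vav1-Cre libraries. Nfkb2 made up 15.2%, 15.4% and 16.0% against 19.5%, 18.9% and 17.4%. Neither pair of ranges overlapped, whereas those of Nfkb1, Rel and Relb did. The sum itself was 65.5 ± 0.787 FPKM in floxed and 61.0 ± 1.89 FPKM in Vav1-Cre libraries (mean ± SD of 3 libraries).

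The ratio of Nfkbia to Rela, an inhibitor and the subunit it binds, was 5.23, 5.29 and 6.99 in floxed and 10.4, 11.1 and 8.17 in Vav1-Cre libraries. The ranges did not overlap, and the means were 5.84 ± 0.998 and 9.89 ± 1.53 (mean ± SD of 3 libraries). These shares and ratios restate the member values and carry no test of their own. They concern RNA, and the amounts of protein were not measured.

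How firmly each call held differed among the members. Nfkbia passed whichever library was left out (edgeR adjusted p from 0.00191 to 0.0461, log2 fold change from 0.42 to 0.61). Tnfaip3 lost the threshold without floxed replicate 1 (adjusted p = 0.0983), floxed replicate 2 (0.107), Vav1-Cre replicate 1 (0.0989) or Vav1-Cre replicate 2 (0.0939). Nfkbie lost it without floxed replicate 1 (0.119), 2 (0.112) or 3 (0.0522) and without Vav1-Cre replicate 1 (0.0951) or 2 (0.144).

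Rela lost the threshold without floxed replicate 1 (0.111), 2 (0.143) or 3 (0.0611), without Vav1-Cre replicate 1 (0.169) or 2 (0.155), and also with DESeq2 (0.0666), limma-voom (0.0601), RLE scaling (0.0511) or the robust option off (0.0609). Nfkbie also lost it with upper-quartile scaling (0.0522). With limma on log2(FPKM + 1) Nfkbia passed (0.0439), whereas Tnfaip3 (0.0781), Nfkbie (0.0576) and Rela (0.0899) did not. Without the FPKM filter Nfkbia lost the threshold as well (0.0792). The direction of all 4 stayed the same under every alternative run. Nfkb1, outside the threshold, came within it with upper-quartile scaling (0.0236), without the count filter (0.0493), with a mean count of at least 50 (0.0383) or without floxed replicate 3 (0.047).

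**Figure D3:**
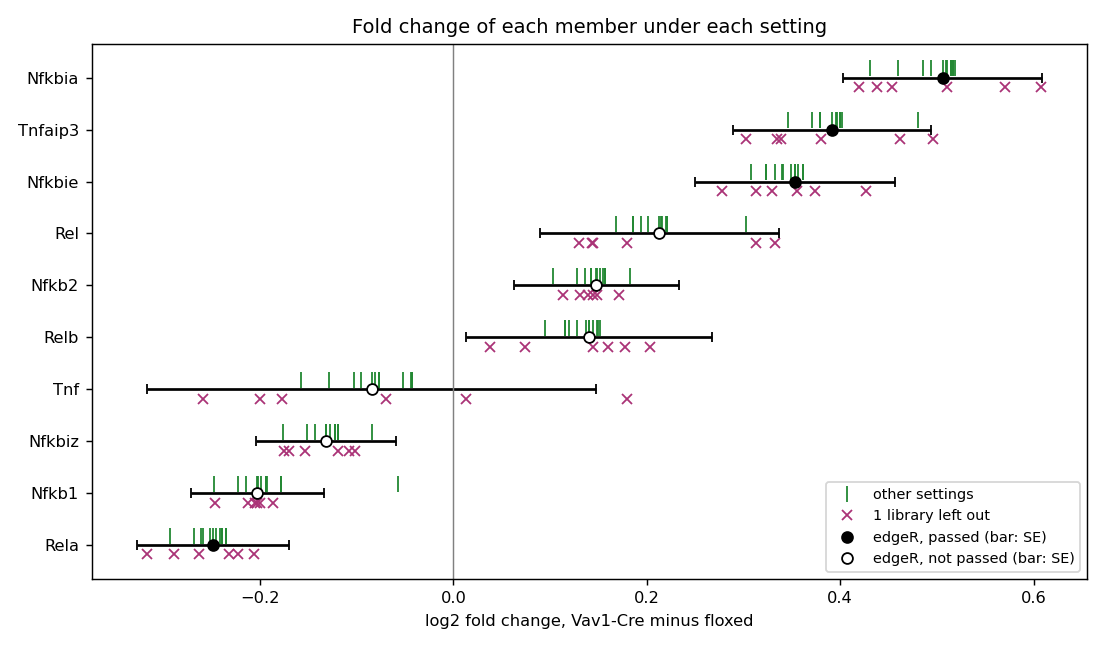
Log2 fold change of each member (horizontal axis, Vav1-Cre minus floxed) in the edgeR fit (circle with SE, filled where it passed), under the other settings (green ticks) and with 1 library left out (crosses). All values of Nfkbia, Tnfaip3 and Nfkbie lie above 0 and all values of Rela below it, while those of Tnf lie on both sides, from -0.26 to 0.18.

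Marker sums of B cells, of plasma cells, and of macrophages and monocytes were higher in every Vav1-Cre library than in any floxed library. The 14 B cell markers summed to 347, 264 and 533 CPM in floxed and 1614, 1659 and 887 CPM in Vav1-Cre libraries, and 8 of the 13 tested were higher and none lower. Plasma cell markers (8 genes) summed to 169 to 729 CPM in floxed and 1795 to 4321 CPM in Vav1-Cre libraries, with 5 of 8 higher and none lower. Macrophage and monocyte markers (14 genes) summed to 2884 to 4165 and 4949 to 6377 CPM, with 8 of 14 higher and none lower. Over all genes tested, 10.1% were called higher and 7.89% lower. No marker of these 3 lists was at 0 counts in any library.

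Abundant markers of these lists included Cd79a and Cd79b, Jchain, Mzb1 and Sdc1, and Lyz2, Ly6c2 and Vcam1. Of these Cd79b, Sdc1 and Ly6c2 were called higher, and Lyz2 had a log2 fold change of 0.13. Among the other lists, none of 12 neutrophil markers (led by S100a9, S100a8 and Ngp) was called. Of 15 T and NK cell markers 9 were higher, Cd4 among them, and 1 was lower (Nkg7), while Lck did not pass. The T and NK cell sum overlapped between the groups, at 238 to 241 CPM in floxed and 198 to 239 CPM in Vav1-Cre libraries. Nkg7 made up the largest part of this sum, with means of 151 CPM in floxed and 88.4 CPM in Vav1-Cre libraries. The list median log2 fold change was 0.96, so the sum does not describe the list as a whole. Of 11 genes listed as dendritic cell markers 6 were higher, Bst2 and Tcf4 among them, and 2 lower, Flt3 among them. Flt3 had means of 407 CPM in floxed and 320 CPM in Vav1-Cre libraries and is not confined to dendritic cells. Of 6 genes listed as gate markers 5 were lower, Cd34 and Kit among them, and 1 higher (Ly6a). Of these 6, only Kit and Ly6a encode the surface proteins that define the gate. The share of all genes tested that were called in either direction was 17.9%.

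The libraries fell in the same order, from lowest to highest, for Tnfaip3, for the B cell sum, for the plasma cell sum and for the immunoglobulin percentage: floxed replicates 2, 1 and 3, then Vav1-Cre replicates 3, 1 and 2. This order was shared by 1.91% of all genes tested. The macrophage sum had another order, with floxed replicate 3 lowest and Vav1-Cre replicate 1 highest. Lyz2 made up the largest part of the macrophage sum, at 2440, 1805 and 3695 CPM in Vav1-Cre replicates 1, 2 and 3. In the same libraries Ly6c2 measured 1102, 966 and 935 CPM and Vcam1 402, 339 and 209 CPM. Both were thus lowest in Vav1-Cre replicate 3 of that group, and the macrophage sum does not describe its list as a whole. The sum of the 6 listed gate markers ran in exactly the order of Rela. Vav1-Cre replicates 1, 2 and 3 were lowest, then floxed replicates 3, 1 and 2, an order shared by 1.48% of the genes tested. Cd34 made up the largest part of this sum (means of 727 CPM in floxed and 472 CPM in Vav1-Cre libraries) and had the same order. The gate gene Ly6a went the other way, so the sum does not describe the gate as a whole. With immunoglobulin genes removed from the table, Nfkbia, Tnfaip3, Nfkbie and Rela had log2 fold changes of 0.51, 0.40, 0.36 and -0.25, all within the threshold. The part of the B-lineage and macrophage RNA in the values of the members was not tested.

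**Figure D4:**
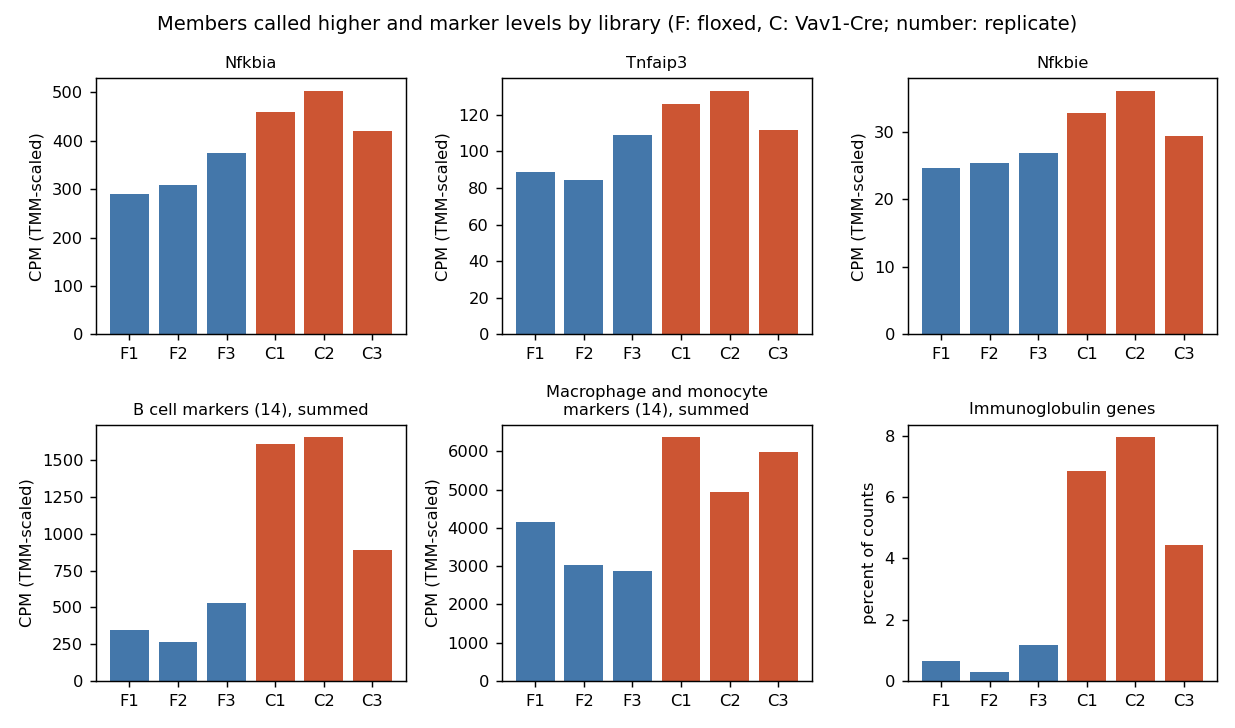
Bars, from 0, show CPM of Nfkbia, Tnfaip3 and Nfkbie, summed CPM of 14 B cell and 14 macrophage and monocyte markers, and the percent of counts from immunoglobulin genes, for floxed (F) and Vav1-Cre (C) replicates 1 to 3. Vav1-Cre replicate 3 is the lowest of its group for the 3 members, the B cell sum and the immunoglobulin percentage. It is not the lowest for the macrophage sum, of which Lyz2, highest in that replicate, made up the largest part. Ly6c2 and Vcam1 of the same list, not drawn singly, were lowest of the group in that replicate.

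The genes whose profile over the 6 libraries lay closest to that of Nfkbia, the member with the smallest p, were Ezh2, Hmgn1, Tyms, Sae1 and Hmga1b. The measure was the root-mean-square distance between log2 CPM values after centring each gene, and it was 0.0545 for Ezh2, the catalytic subunit of Polycomb complex PRC2, and 0.0713 for Hmga1b, the last of the 5. Ezh2 rose from 121 ± 14.1 to 167 ± 22.5 CPM, a log2 fold change of 0.46 (edgeR adjusted p = 0.0184), and the other 4 had values of 0.42 to 0.64. Hmga1b is close in sequence to Hmga1, so its reads may be shared between them. Of the members, Tnfaip3 (0.0755) and Nfkbie (0.113) were nearest to Nfkbia, at ranks 12 and 126 of the tested genes. Rela (0.425) was the farthest. Likeness over 6 libraries describes these values and nothing about control.

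The rest of the pathway was read from 7 lists, ordered here from ligand to target. They hold 125 genes besides the members, each counted once, of which 120 were tested. Of these, 19 were higher and 9 lower, 23.3% together against 17.9% of all genes tested, and their median log2 fold change was 0.02. Without floxed replicate 1, 2 or 3 the number called was 19, 17 or 25, and without Vav1-Cre replicate 1, 2 or 3 it was 14, 14 or 37.

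Ligands changed in 4 of 13 tested genes (30.8%, against 17.9% of all genes tested). Lta, which encodes lymphotoxin alpha and neighbours Tnf on chromosome 17 (35203165 to 35205351), rose 5.95-fold, though from a low level: 0.476, 0.375 and 0.323 CPM in floxed and 2.59, 2.58 and 1.94 CPM in Vav1-Cre libraries (edgeR adjusted p = 0.00143). Tnfsf11, which encodes RANKL, rose 3.01-fold (adjusted p = 0.0449) and Il18, an inflammatory cytokine, 1.40-fold (0.0305). Tnfsf13, which encodes the B cell factor APRIL, fell 2.83-fold (adjusted p = 0.025). Its counts were low, at 37, 51 and 35 in floxed and 11, 7 and 17 in Vav1-Cre libraries. Part of its exons is shared with the annotated gene Tnfsfm13, so the assignment of its reads is uncertain. Of these 4 only Lta passed whichever library was left out. Tnfsf11, Il18 and Tnfsf13 lost the threshold without floxed replicate 1 (adjusted p = 0.165, 0.111 and 0.0564), floxed replicate 2 (0.0793, 0.131 and 0.11), Vav1-Cre replicate 1 (0.129, 0.147 and 0.0924) or Vav1-Cre replicate 2 (0.114, 0.0991 and 0.101). With the gene length offset Tnfsf11 (0.0513) and Il18 (0.0779) lost it, as did Il18 with limma-voom (0.0584) or the robust option off (0.0539). The list had 1 to 3 rises and 0 to 2 falls with single libraries left out, and 1 rise without floxed replicate 2 or Vav1-Cre replicate 1 or 2.

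Receptors changed in 7 of 20 tested genes (35%, against 17.9% of all genes tested), with a list median log2 fold change of 0.54. Tlr4, the receptor for bacterial lipopolysaccharide, rose 1.98-fold, from 7.36 ± 0.561 to 14.5 ± 1.22 CPM (mean ± SD of 3 libraries, edgeR adjusted p = 0.00108). Tlr7, a receptor for single-stranded RNA, rose 1.57-fold (0.00159), and Tnfrsf13c, which encodes the BAFF receptor of B cells, 2.24-fold (0.00405). All 3 passed whichever library was left out. Tlr8 and Cd40 were also higher, from low levels (means of 1.81 and 1.04 CPM in floxed libraries). Tnfrsf1a, the main receptor for TNF, fell 1.35-fold: means were 114 ± 13.7 CPM in floxed and 84.0 ± 9.01 CPM in Vav1-Cre libraries (SD, adjusted p = 0.014), and Il1r1, a receptor for interleukin-1, was lower too.

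Tnfrsf1a lost the threshold without floxed replicate 1 (adjusted p = 0.0608) or 2 (0.0727) and without Vav1-Cre replicate 1 (0.0788) or 2 (0.0634). No receptor was called lower when any 1 of these 4 libraries was left out, and 3 were without Vav1-Cre replicate 3. The receptors called higher numbered 3 without Vav1-Cre replicate 1 and 4 to 6 when another library was left out. Cd40 and Tnfrsf13c are B cell receptors, and Tlr4, Tlr7 and Tlr8 are widely found on myeloid cells, whose marker sums are given above. Their part in these rises was not tested.

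Between receptor and subunit, 1 of 14 adaptors of TNF signalling (7.14%) and 2 of 12 kinase-step genes (16.7%) were called, against 17.9% of all genes tested. Traf3, which keeps the kinase of the non-canonical branch low, fell 1.28-fold (edgeR adjusted p = 0.0388). Of the kinase-step genes Ikbke, an IKK-related kinase, fell 1.64-fold (edgeR adjusted p = 0.0021) and Map3k14, which encodes NIK, the kinase of the non-canonical branch, 1.28-fold (0.032). The core IKK genes Chuk, Ikbkb and Ikbkg did not pass, with log2 fold changes of 0.13, -0.09 and -0.15.

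Of Traf3, Ikbke and Map3k14, Ikbke passed whichever library was left out. Traf3 lost the threshold without floxed replicate 1 (0.0937) or 2 (0.137) and Vav1-Cre replicate 1 (0.123) or 2 (0.132). Map3k14 lost it without floxed replicate 1 (0.0564) or 2 (0.111) and without Vav1-Cre replicate 1 (0.0542), 2 (0.105) or 3 (0.0572). With the gene length offset both lost it (0.103 for Traf3 and 0.0848 for Map3k14), and Traf3 also with DESeq2 (0.0549). Exons of Map3k14 and Ikbke overlap those of other annotated genes.

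Among 17 other inhibitors and brakes 1 was higher and 1 lower, 11.8% together against 17.9% of all genes tested, with a list median log2 fold change of -0.06. Nfkbib, which encodes IkB-beta, the third classical inhibitor beside those of Nfkbia and Nfkbie, rose 1.25-fold: 41.7, 43.3 and 40.9 CPM in floxed and 55.2, 53.3 and 49.2 CPM in Vav1-Cre libraries (edgeR adjusted p = 0.0172). The genes of all 3 classical cytoplasmic inhibitors were thus within the threshold and higher in the Vav1-Cre libraries. Nfkbib lost it without floxed replicate 1 (0.0685), 2 (0.0531) or 3 (0.0538) and without Vav1-Cre replicate 1 (0.0811) or 2 (0.0621), and its exons overlap those of Ccer2 and Sirt2 on the opposite strand.

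Tnip3, whose product binds A20, fell 1.53-fold, from 10.2 ± 0.737 to 6.68 ± 0.72 CPM (mean ± SD of 3 libraries, edgeR adjusted p = 0.0238). It lost the threshold without floxed replicate 1 (0.0888), 2 (0.0522) or 3 (0.0514), without Vav1-Cre replicate 1 (0.0702) or 2 (0.0956), and with the gene length offset (0.0653). Cyld and Otulin, which remove ubiquitin chains from signalling proteins, had log2 fold changes of -0.03 and 0.08 and did not pass.

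Inducible targets of NF-kB were mixed. With the members left out, 9 of 38 tested targets were higher and 2 lower, 28.9% against 17.9% of all genes tested, with a median log2 fold change of 0.22. The cytokine gene Il10 rose 6.91-fold, from 1.27 ± 0.7 to 8.80 ± 1.21 CPM (mean ± SD of 3 libraries, edgeR adjusted p = 0.000344), and Bcl2l1, which encodes the survival protein BCL-XL, 1.57-fold, from 33.9 ± 1.76 to 53.3 ± 3.85 CPM (0.000619). Ier3, an immediate early gene, fell 1.87-fold (148 ± 16.7 to 79.2 ± 9.81 CPM, 0.000442) and Myc, the growth regulator, 1.67-fold (153 ± 7.5 to 91.3 ± 14.4 CPM, 0.000855). These 4 passed whichever library was left out.

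The other targets called higher were Cd83, Gadd45b, Ccl5, Ier5, Bcl2a1b, Cxcl10 and Bcl2a1a, among them the chemokine genes Ccl5 (log2 fold change 0.73, edgeR adjusted p = 0.00469) and Cxcl10 (0.49, 0.0281). Il6 (0.04), Il1b (0.70), Ccl3 (-0.76), Cxcl2 (0.01) and Icam1 (0.26) did not pass. The genes given with values here were chosen after those values were seen. The number of targets called higher was 8, 6 and 9 without floxed replicate 1, 2 and 3, and 6, 5 and 12 without Vav1-Cre replicate 1, 2 and 3, and 2 or 3 were called lower in each case. Of the 9 higher targets, Bcl2a1a and Bcl2a1b are near-identical copies among which reads may be split. Their counts were low, at 2, 8 and 3 in floxed and 23, 11 and 11 in Vav1-Cre libraries for Bcl2a1a. For Bcl2a1b they were 9, 2 and 5 in floxed and 35, 24 and 10 in Vav1-Cre libraries.

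**Figure D5:**
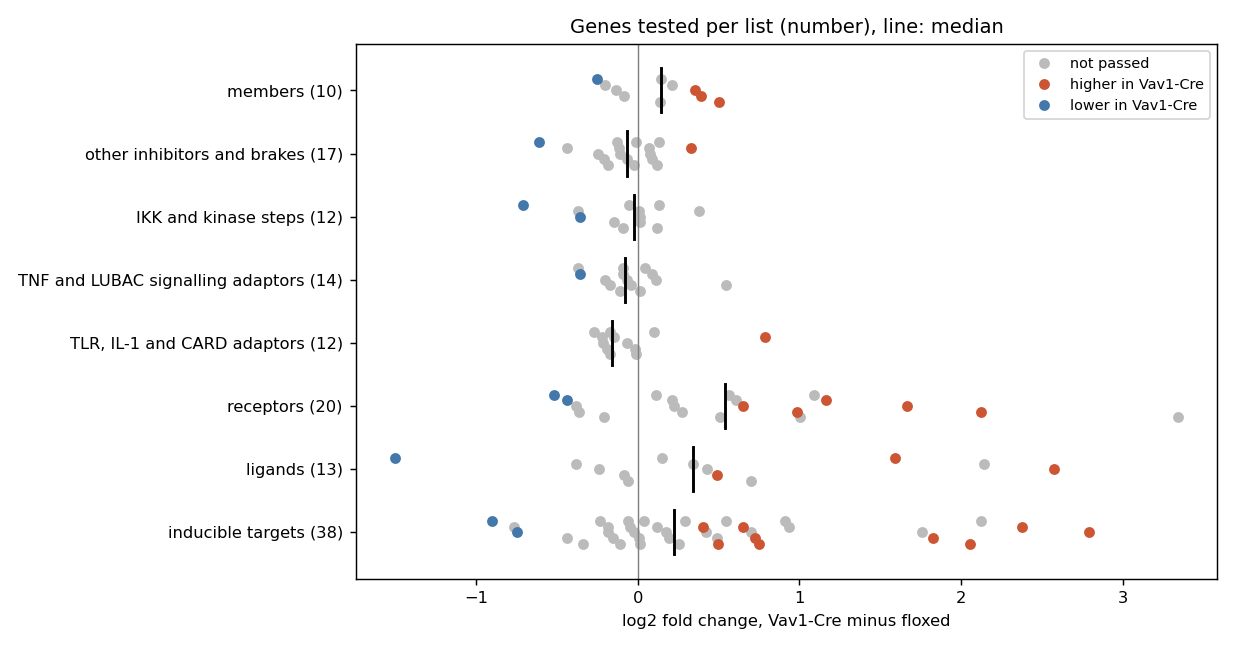
Log2 fold change (horizontal axis, Vav1-Cre minus floxed) of every tested gene in the members and the 7 pathway lists, members left out of the latter, with genes called higher in red, called lower in blue and not passed in grey, and list medians as black lines. The medians of receptors (0.54) and inducible targets (0.22) lie above 0, and those of the adaptor and kinase lists lie from -0.16 to -0.02.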

How the data were processed

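For each of 54532 Ensembl genes and 6 libraries the authors deposited a read count and an FPKM value, per the file headers. The submitters' processing notes name Bowtie and mm8; for the counting tool, annotation and strand setting nothing is given in the sources. Identifiers were paired with symbols by table (54409 matched), and gene positions and exon overlaps came from GENCODE M21 (GRCm38), a later build than mm8. The deposited FPKM values equal counts per kilobase over library sizes scaled by median ratios, with gene lengths equal to those of M21 for about 94.5% of well-counted genes, and were used for levels between genes.

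Deposited counts were tested with edgeR 4.0.16 (R 4.3.3; quasi-likelihood, TMM scaling, default filter with minimum count 10, robust option, Benjamini-Hochberg adjustment over all genes tested, threshold 0.05, two-sided), Vav1-Cre against floxed, with no covariate. The scripts were tested on simulated data. Intervals are 95%, CPM values carry the TMM factors, and replicates are numbered in accession order. Replicates differed by more than counting noise in every pair (chi-square per gene at least 12.0).

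As alternatives, DESeq2 1.42.0, limma-voom (limma 3.58.1), RLE or upper-quartile scaling, leaving out the count filter, requiring a mean count of 50, switching the robust option off, removing immunoglobulin genes, a loess offset for gene length, and limma on log2(FPKM + 1) or log2(FPKM + 0.1) for genes with a mean FPKM of at least 0.5 or for all genes were run, and each library was left out in turn. The members and lists were chosen with earlier results of these data known, so they give no independent support for any direction. Named genes are the members, Phf6, up to 4 called genes of smallest p per pathway list, the 5 nearest profiles and the 3 most abundant genes of each marker list; others named were chosen after their values were seen. Results of a few genes that this rule names are not reported here.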

Additional observations from a re-analysis of the deposited data

How the results depend on the processing

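Members called higher (3) numbered 1 with limma on log2(FPKM + 1) or log2(FPKM + 0.1), 0 with log2(FPKM + 1) and no filter, 1 to 3 with single libraries left out, and 3 or 2 under the other settings. Members called lower (1) numbered 0 with RLE scaling, DESeq2, limma-voom, the robust option off and the 3 FPKM fits, 2 with upper-quartile scaling, no count filter or a mean count of at least 50, and 0 to 1 with libraries left out. All genes called (2621) numbered 1581, 1532 and 660 in the FPKM fits and 1218 to 3295 with libraries left out. Pathway genes called (28) numbered 17 with log2(FPKM + 0.1), 10 with no FPKM filter and 14 to 37 with libraries left out; the cause of these differences was not tested. Tnf ran from -0.26 to 0.18 with libraries left out and had a positive sign in 2 of these 6 fits. No paired analysis was possible because the labels give the groups no shared replicate numbers. With 3 libraries a group, the smallest change called among the members was 1.19-fold (Rela, edgeR adjusted p = 0.0445). The smallest change that the test can call was not measured.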
